A study of Caenorhabditis elegans with 2 samples.

Results

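Sites occupied by DSC-1 were examined at 37 ciliary and intraflagellar transport genes of Caenorhabditis elegans, of 19973 protein-coding genes in all. The genes were listed by name, with earlier results of these data known, and all 37 symbols were found in the gene annotation. They were grouped by the complex or role of their products. There are 14 genes of intraflagellar transport complex B (IFT-B), 4 of complex A (IFT-A), 3 motor genes, 6 BBSome genes, 5 transition zone genes and 5 others.

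Cilia of C. elegans are found only on sensory neurons, where they hold the receptors and channels of chemosensation, thermosensation and mechanosensation. Motors move trains of IFT-B and IFT-A proteins along the axoneme: kinesin-2 carries them towards the tip and dynein-2 brings them back. The BBSome stabilises the trains and sorts membrane cargo, and the transition zone gates the base of the cilium. Many of these genes are controlled by the RFX-type factor DAF-19, which binds a palindrome-like site called the X-box close to the gene start.

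DSC-1, a homeodomain protein of the paired-like class, is known from the defecation motor program. The animals were hermaphrodites of strain OP522, which carries unc-119(tm4063) III and the transgene wgIs522, from which DSC-1 is made with a GFP-FLAG tag at its carboxy terminus. Larvae starved at hatching after bleaching were taken at the first larval stage, 6 hours after synchronization, and whole animals were used for chromatin immunoprecipitation with an antibody to GFP. There is 1 group with 2 biological replicates, so no condition could be compared with another, and the control experiment named in the labels was not analysed here. Ciliated neurons are a part of the whole animal, so a peak does not show in which cells DSC-1 was bound, and the levels of the genes were not measured.

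The deposited lists for genome build ce11 hold 26482 peaks for replicate 1, 30000 for replicate 2, 30000 for the pooled replicates and, kept from the pooled list by a threshold of the authors on the irreproducible discovery rate (IDR), 6283 peaks. IDR compares the ranks of peaks between replicates. The authors' naming calls this list optimal, and how it was chosen was not examined. The first 3 lists reach down into background by the authors' own naming, so a weak peak in them is given here by its rank. Of the IDR peaks, 6264 overlapped a peak of replicate 1 and 6251 a peak of replicate 2. The others, 19 and 32 in turn, show that an IDR peak need not be in both replicate lists. The peak caller of the authors gave every peak a signal, on a scale that is not stated. Signal is therefore compared within a list only, with rank 1 the strongest peak. In the IDR list it ran from 78.4 to 2260 with a median of 162.

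A gene was counted as having a promoter summit where the highest point of a peak lay from 1000 bp upstream to 200 bp downstream of its outermost annotated start. IDR summits lay in the promoter windows of 8 of the 37 ciliary genes: ift-81, dyf-6 and dyf-3 of IFT-B, dyf-2 and daf-10 of IFT-A, bbs-8 of the BBSome, the tubby homologue gene tub-1 and daf-19 itself. This is 21.6% of the genes (exact Clopper-Pearson 95% interval 9.83% to 38.2%), and the background over all protein-coding genes was 14.7%, inside that interval. Such intervals cover counting error only, and genes are not replicates. None of the 3 listed motor genes (interval 0% to 70.8%) and none of the 5 listed transition zone genes (0% to 52.2%) had an IDR promoter summit. These are too few genes to set either group apart from the background. The peaks of the 8 genes had a median signal of 125, and the strongest promoter peaks of the 2944 protein-coding genes with one had a median of 188.

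**Figure D1:**
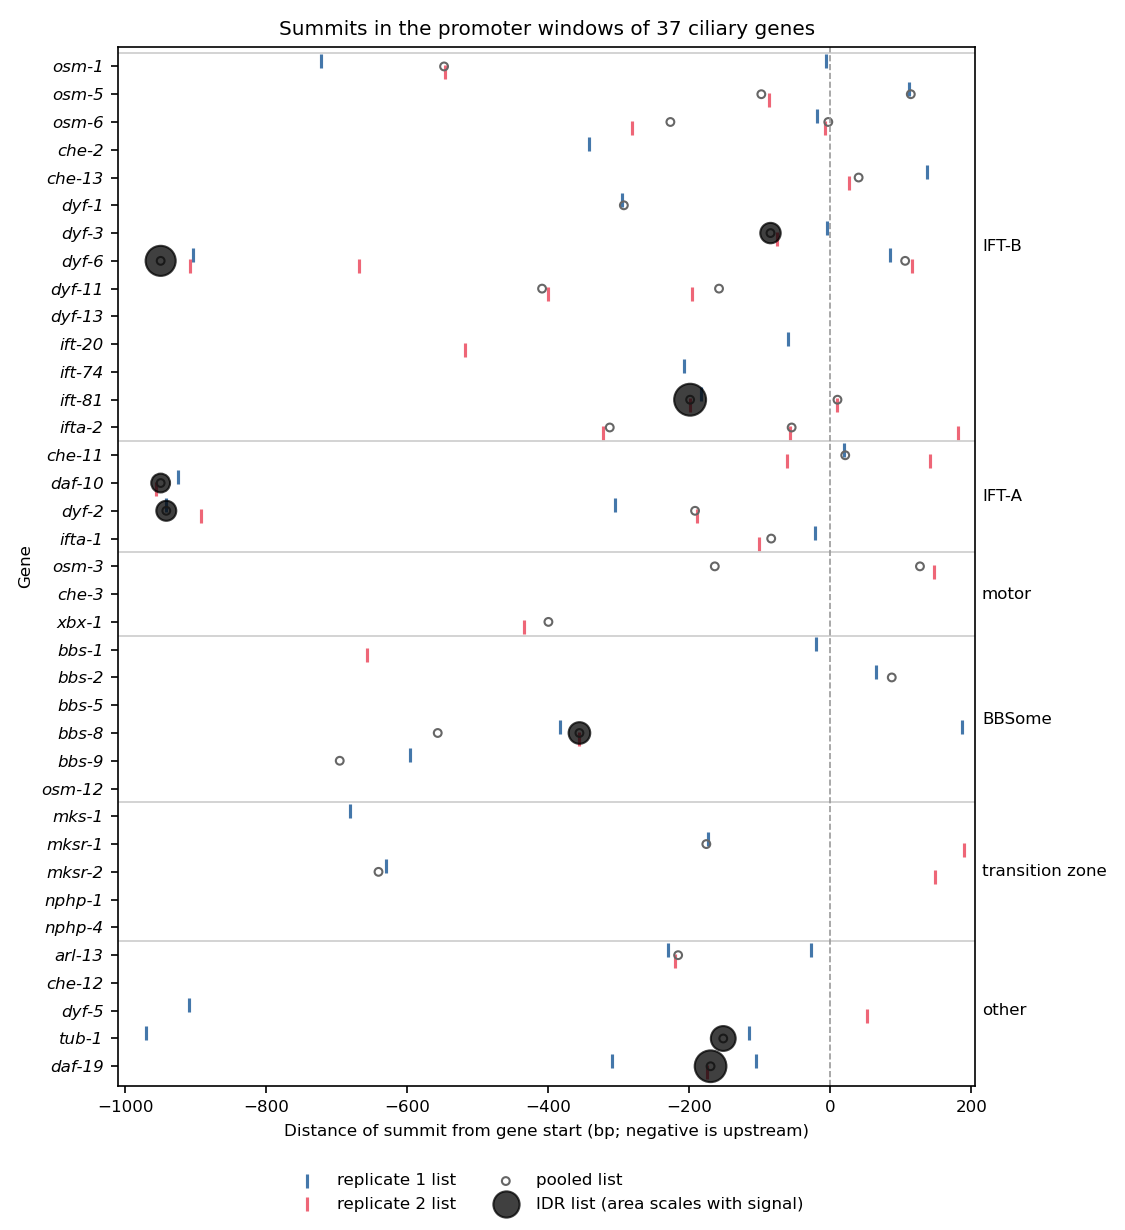
Summits in the promoter windows of the 37 ciliary genes. Each row is a gene, grouped by complex, and the horizontal axis is the distance of the summit from the gene start in bp, with negative values upstream. Blue and red ticks are summits of the replicate 1 and replicate 2 lists, open circles those of the pooled list, and black circles those of the IDR list with an area that scales with signal. Black circles appear in 8 rows, and no mark of any kind appears in 7 rows.

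The weaker peaks gave another picture. Among all peaks of the pooled list, 24 of 37 ciliary genes (64.9%, interval 47.5% to 79.8%) had a promoter summit, beside 33.3% of all protein-coding genes. In replicate 1 alone the count was 26 of 37 (70.3%, interval 53.0% to 84.1%) beside a background of 33.7%. In replicate 2 alone it was 23 of 37 (62.2%, interval 44.8% to 77.5%) beside 34%. The background was lower than the share of the ciliary genes in each of these 3 whole lists. The intervals treat the genes as independent and are no test of this. The pooled list is made from the 2 replicates, so these are not 3 separate observations, and all 3 lists include background peaks. No test was made. When each replicate was instead cut to its 6283 strongest peaks, replicate 1 gave 8 of 37 beside a background of 15% and replicate 2 gave 5 of 37 beside 14.3%. Shares near the background in the strong lists therefore stood beside shares above it in the whole lists, in both replicates.

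**Figure D2:**
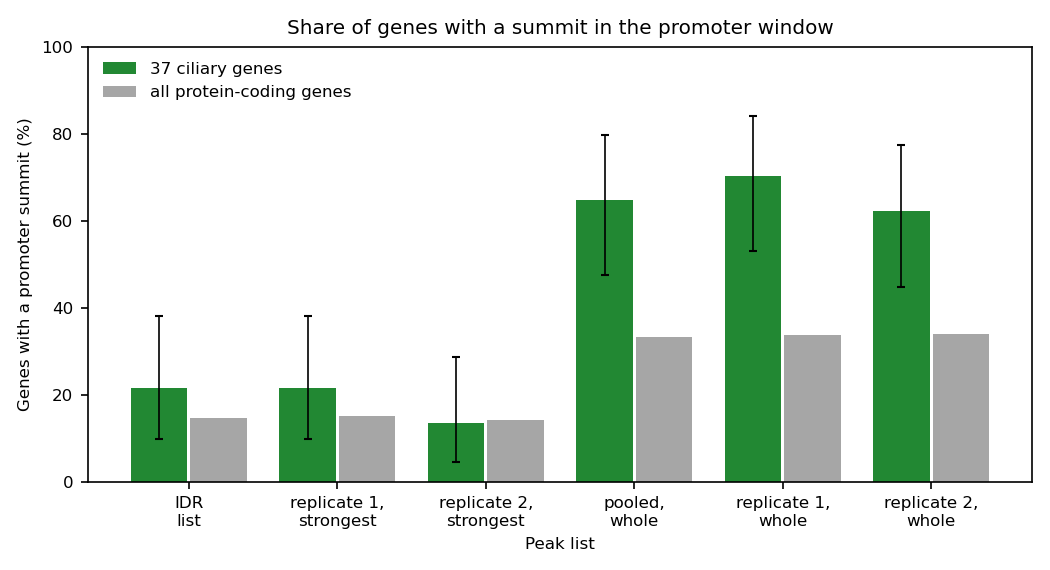
Share of genes with a summit in the promoter window, in percent, for 6 versions of the peak lists. Green bars are the 37 ciliary genes with Clopper-Pearson 95% intervals and grey bars are all 19973 protein-coding genes. In the whole lists the green bars reach 62.2% to 70.3% and the grey bars 33.3% to 34%, while in the IDR list the green bar reaches 21.6% and the grey bar 14.7%.

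In the whole replicate lists, 19 of the 37 genes had a promoter summit in both replicates, 11 in 1 replicate and 7 in neither. Of all protein-coding genes 25.4% had one in both, 16.8% in 1 and 57.8% in neither. A summit anywhere in the window was counted, so the 2 replicates did not always mark the same place. At bbs-1, for example, the summits lay 21 bp upstream in replicate 1 and 657 bp upstream in replicate 2. The 7 genes with a summit in neither were dyf-13, che-3, bbs-5, osm-12, nphp-1, nphp-4 and che-12, and the pooled list held no summit for them either. Among the strongest peaks, 4 genes had a summit in both replicates, 5 in 1 replicate and 28 in neither, beside 12.6%, 4.1% and 83.3% of all protein-coding genes. The 4 found in both were dyf-6, ift-81, daf-10 and daf-19.

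Within IFT-B, the complex of anterograde transport, 3 of 14 genes had an IDR promoter summit and 10 of 14 had a summit in the whole pooled list. The strongest was at ift-81, whose product binds tubulin together with IFT-74 in the core of the complex. Its peak (chrX:5298270-5298433 on ce11) had a signal of 99.7 in replicate 1 and 132 in replicate 2, at ranks 2010 and 2107. In the IDR list the signal was 234.9, at rank 1979. The replicates thus placed this peak at nearly the same rank. The summit lay 199 bp upstream of ift-81, inside an intron of ags-3, a gene for an activator of G protein signalling, and no other protein-coding gene had it in its promoter window. The start of the noncoding RNA gene F32A6.8 was 239 bp from the same summit.

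At dyf-6, which encodes the homologue of another IFT-B core protein, the peak (chrX:10387316-10387556) had a signal of 116 in replicate 1 (rank 1574) and 99.2 in replicate 2 (rank 2985). The IDR signal was 208, at rank 2336. This summit lay 950 bp upstream of the gene, near the far edge of the window and outside any protein-coding gene. A further IDR summit lay 313 bp downstream of the start in an intron of dyf-6, with signal 129 (rank 3997), and another lay in a coding exon 6422 bp downstream, with signal 174 (rank 2883). IDR summits therefore lay on both sides of the start of dyf-6.

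The third IFT-B gene, dyf-3, is needed for assembly of the cilium and encodes the homologue of vertebrate CLUAP1. Its peak (chrIV:3399118-3399513) was weaker, with a signal of 50.5 in replicate 1 (rank 4392), 40.2 in replicate 2 (rank 7391) and 96.0 in the IDR list (rank 5269). Its rank in replicate 2 fell outside the 6283 strongest peaks. The summit lay 85 bp upstream of dyf-3 and 356 bp upstream of the divergent gene pdhb-1, for a pyruvate dehydrogenase subunit, so the peak cannot be assigned to one of them.

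The sequences around the summits of ift-81, dyf-6 and dyf-3 are shown as the IFT-B sites in which homeodomain words were counted. Each spans 50 bases to either side of the IDR summit and is read on the strand of the gene, from the WBcel235 genome (chrX:5298312-5298412 plus strand, chrX:10387408-10387508 minus strand, chrIV:3399266-3399366 minus strand). Capitals mark TAAT or ATTA, the core that homeodomains commonly bind, searched on both strands.
ift-81: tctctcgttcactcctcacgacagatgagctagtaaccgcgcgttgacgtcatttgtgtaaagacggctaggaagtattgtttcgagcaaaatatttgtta
dyf-6: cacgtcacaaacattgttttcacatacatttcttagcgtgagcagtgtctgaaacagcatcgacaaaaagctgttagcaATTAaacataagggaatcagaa
dyf-3: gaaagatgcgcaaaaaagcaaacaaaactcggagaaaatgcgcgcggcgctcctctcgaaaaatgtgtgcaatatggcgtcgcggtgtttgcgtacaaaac

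The core TAAT or ATTA was present once in the dyf-6 window and in none of the other 7 summit windows of ciliary genes. Of the 6283 windows of the same width around IDR summits, 57.1% held it. TAATTA was found at 0 of the 8 ciliary summits and at 4.54% of all IDR summits. A paired homeodomain site, TAAT and ATTA separated by any 3 bases, was found at 0 of 8 and at 0.621%. In the whole promoter windows TAATTA was present at 19 of 37 ciliary genes, beside 47.3% of all promoters, and the paired site at 2, bbs-2 and nphp-1, beside 6.89%. The words describe these windows, and a window without them says nothing of whether DSC-1 binds there.

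The other 11 IFT-B genes had no IDR summit in the promoter window. The one nearest to the threshold was che-13, for a protein at the periphery of the complex, with a pooled signal of 61.9 (rank 7737) at a summit 40 bp downstream of its start. Its summits had signals of 22.8 in replicate 1 and 37.2 in replicate 2. On the other side of the threshold, the weakest promoter peak of a ciliary gene in the IDR list was that of daf-10, with a signal of 81.6 (rank 6069). Next in the pooled list came osm-6, a core IFT-B gene, with a signal of 49.3 (rank 9511) 3 bp upstream of its start, and dyf-1, which is needed for OSM-3 to work on the trains, with 47.5 (rank 9866) 293 bp upstream. For dyf-1 the replicate 1 list held the summit and the replicate 2 list held none, while osm-6 had one in both.

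Of the remaining IFT-B genes, ifta-2 had a pooled signal of 42.3, dyf-11 of 40.6, osm-5 of 36.7 and osm-1 of 28.6. Replicate 1 held no promoter summit for dyf-11 and ifta-2, and both replicates held one for osm-1 and osm-5, though at different places. At osm-5 the summits lay 112 bp downstream in replicate 1 and 87 bp upstream in replicate 2. At osm-1 they lay 722 bp and 6 bp upstream in replicate 1 and 547 bp upstream in replicate 2. The pooled list held no promoter summit for che-2, ift-20 and ift-74, which had weak summits in at least 1 replicate, with signals from 12.4 at che-2 to 20.7 at ift-74 in replicate 1. In ift-20 the strongest summits of the replicates were 60 bp and 519 bp upstream, so the 2 lists did not mark the same place.

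IFT-A is the complex of retrograde transport, and 2 of its 4 genes, daf-10 and dyf-2, had an IDR promoter summit. The peak at daf-10 (chrIV:9146963-9147358) had a signal of 36.8 in replicate 1 (rank 5976) and 49.8 in replicate 2 (rank 6084). Its summit lay 950 bp upstream of daf-10 but 292 bp upstream of rpb-12, for a subunit of RNA polymerase II, and 307 bp upstream of aly-2, for an mRNA export factor. At dyf-2 the peak (chrIII:13687189-13687584) had a signal of 61.3 in replicate 1 (rank 3587), 38.4 in replicate 2 (rank 7735) and 91.9 in the IDR list (rank 5486). This summit was 942 bp upstream of dyf-2 and 118 bp downstream of the start of cul-2, for a cullin of a ubiquitin ligase, in its 5′ untranslated region. In both cases another protein-coding gene start was nearer, and with each summit given to the nearest start alone no IFT-A gene had one.

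All 4 IFT-A genes had a promoter summit in the whole pooled list and in each whole replicate list. The pooled summit of che-11 lay 21 bp downstream of its start with a signal of 54.1 (rank 8712), and that of ifta-1 84 bp upstream with 33.9 (rank 14321). At che-11 the replicate signals were 21.2 and 41.6, and at ifta-1 they were 12.3 and 23.8. In both replicates these peaks ranked below the 6283 strongest.

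Among the motor genes, osm-3 encodes the homodimeric kinesin-2, che-3 the dynein-2 heavy chain and xbx-1 a dynein-2 light intermediate chain. None of these 3 genes had a promoter summit in the replicate 1 list. The osm-3 window held a summit of signal 25.3 in replicate 2 (rank 11978), and xbx-1 one of 12.1 (rank 28442). No list had a promoter summit at che-3, and around its start the distance from one summit to the next was 59986 bp in replicate 1 and 60011 bp in replicate 2. The whole neighbourhood of che-3 was thus without peaks in both lists, background peaks included. The median distance between neighbouring summits was 1506 bp in replicate 1 and 1191 bp in replicate 2. A given position falls more often in a long gap than in a short one, so these medians overstate the contrast.

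For the BBSome, bbs-8 was the 1 gene of 6 with an IDR promoter summit. BBS-8 is a tetratricopeptide repeat subunit of the complex. Its peak (chrV:6765230-6765625) had a signal of 25.4 in replicate 1 (rank 8864) and 83.3 in replicate 2 (rank 3668), and 108 in the IDR list (rank 4761). Among the IDR promoter peaks of ciliary genes that were found in both replicates, the ranks differed most here. The summit lay 356 bp upstream of the gene and in no other promoter window. A further IDR summit was found 309 bp downstream of the start, in an intron of bbs-8, with signal 90.6 (rank 5559) and ranks of 4199 and 6599 in the replicates.

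The other BBSome genes had weak or no promoter summits. In the pooled list bbs-2 had one of signal 39.0 (rank 12153) and bbs-9 one of 21.4 (rank 24763). At bbs-1 the signal was 13.3 in replicate 1, 21 bp upstream, and 14.99 in replicate 2, 657 bp upstream, with nothing in the pooled list. The pooled list ends at a signal of 17.7, a value that cannot be set against replicate signals. At xbx-1 a summit of 12.1 in replicate 2 stood beside a pooled one of 18.4. Why the pooled list lacks bbs-1 was not tested. No list held a promoter summit at bbs-5 or osm-12. The gene body of bbs-2 held a stronger IDR peak, in a coding exon 3140 bp from its start, with signal 244 (rank 1875) and ranks of 1472 and 2288 in the replicates.

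None of the 5 listed transition zone genes had an IDR promoter summit. They belong to the MKS module (mks-1, mksr-1, mksr-2) and the NPHP module (nphp-1, nphp-4). The strongest was at mksr-2, 641 bp upstream, with a pooled signal of 46.7 (rank 10036). In replicate 1 its signal of 37.4 (rank 5891) put it among the strongest peaks, while in replicate 2 the strongest promoter summit had a signal of 13.3 (rank 25875) at a place 148 bp downstream of the start. The mksr-1 gene had a pooled signal of 26.4, and mks-1 had a summit of 12.8 in replicate 1 alone. Around the start of nphp-1 the distance between summits was 53230 bp in replicate 1 and 51180 bp in replicate 2.

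Of the 5 other genes, daf-19 and tub-1 had IDR promoter summits. DAF-19 is the factor that switches on genes of cilium formation through the X-box. The peak at daf-19 (chrII:10169422-10169581) had a signal of 106 in replicate 1 (rank 1837), 129 in replicate 2 (rank 2167) and 232 in the IDR list (rank 2020). Its summit lay 170 bp upstream of daf-19 and in no other promoter window. Further IDR summits lay in introns of daf-19, 2777 bp downstream of the start with signal 131 (rank 3931) and 8716 bp downstream with signal 109 (rank 4718). Together with ift-81, daf-19 had a promoter summit under all 9 alternative ways of counting.

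At tub-1, which encodes a tubby protein of the cilium with roles in fat storage and chemosensation, the replicate lists differed. The peak (chrII:8156899-8157294) had a signal of 49.0 in replicate 1 (rank 4542) and 142 in the IDR list (rank 3626). The replicate 2 list had no peak there, and its nearest summit was 13500 bp away. Reads were not examined, so this does not show that replicate 2 lacked signal at the site. This was 1 of 32 IDR peaks that overlapped no peak of replicate 2. The replicate 2 list held no summit over 41614 bp around it, a stretch with the starts of 16 protein-coding genes, and 246 of its 29994 gaps between summits were longer. In the same stretch replicate 1 had 3 summits and the IDR list 1. The tub-1 summit lay 152 bp upstream of the gene and 226 bp upstream of the divergent gene tmem-138, for a transition zone membrane protein.

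**Figure D3:**
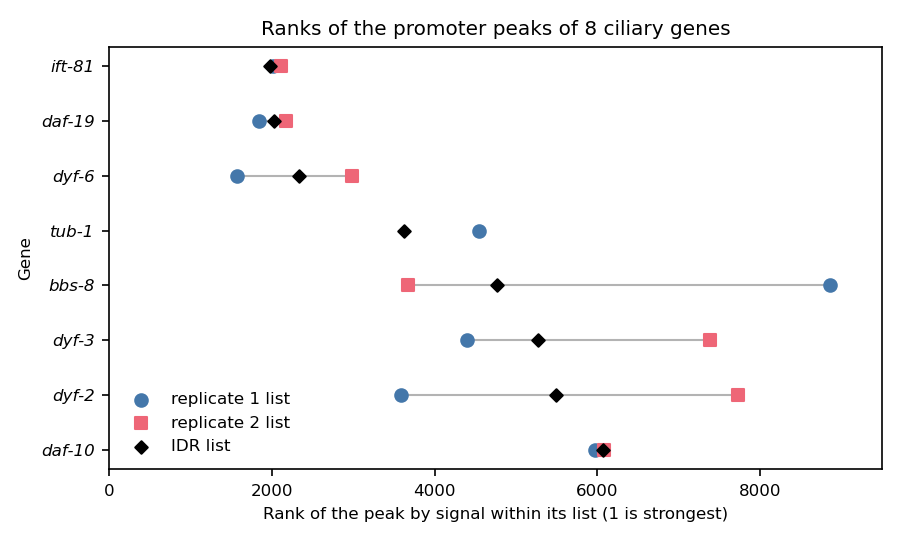
Rank by signal of the IDR promoter peak of each of the 8 ciliary genes, with 1 the strongest peak of a list. Circles are the overlapping peak in replicate 1, squares that in replicate 2, diamonds the peak in the IDR list, and lines join the 2 replicates. The ranks of ift-81, daf-19 and daf-10 lie close together, and those of bbs-8 lie at 8864 and 3668. The tub-1 row has no square because the replicate 2 list held no peak there.

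The remaining 3 genes had no IDR promoter summit. ARL-13 is a small GTPase of the ciliary membrane, and its gene had a pooled signal of 58.9 (rank 8071) 216 bp upstream, with 33.9 in replicate 1 and 19.8 in replicate 2. The dyf-5 gene, for a kinase that limits cilium length, had promoter summits at the weak end of both replicate lists. They lay at different places, with signal 11.8 at 910 bp upstream in replicate 1 and 11.9 at 52 bp downstream in replicate 2. The nearest IDR summit of dyf-5 was 816 bp downstream in an intron, with signal 144 (rank 3583). No list held a promoter summit at che-12.

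An X-box, as a 14-base consensus searched on both strands, was present in the promoter windows of 20 of 37 ciliary genes, beside 1.19% of all protein-coding genes (237 of 19973). By group these were 10 of 14 IFT-B genes, 0 of 4 IFT-A genes, 1 of 3 motor genes, 6 of 6 BBSome genes, 0 of 5 transition zone genes and 3 of 5 others. Ciliary genes have long been found through this site, so the count describes the genes and is no result on DSC-1. A second consensus, which allows other bases at some positions and fewer at others, was present at 25 of 37 beside 10.2% of all promoters. It matched 17 of the 20 genes, without bbs-2, bbs-8 and arl-13, and 8 more. An IDR promoter summit was found at 3 of the 20 genes with an X-box (dyf-3, bbs-8 and daf-19) and at 5 of the 17 without one. Of all 237 promoters with an X-box, 23 (9.7%) had one, and the difference between genes with and without an X-box was not tested.

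Within 100 bp of the X-box an IDR summit was found at 1 of the 20 genes, daf-19, beside 4 of the 237 promoters with an X-box (1.69%). In the whole pooled list a summit lay that close at 7 of the 20, osm-5, osm-6, che-13, dyf-11, ifta-2, bbs-2 and daf-19, beside 30 of 237 (12.7%), a number that includes these 7. At osm-5 the pooled summit lay 5 bp from the middle of the X-box, at dyf-11 14 bp, at che-13 28 bp and at osm-6 51 bp. The replicate 2 summit of osm-5 lay 7 bp from the X-box and the nearest replicate 1 summit 206 bp from it, so the closeness was seen in 1 replicate. The same held for che-13, whose nearest summits were 125 bp away in replicate 1 and 15 bp in replicate 2, for ifta-2 with 5577 bp and 59 bp, and for bbs-2 with 58 bp and 281 bp. At osm-6 the distances were 35 bp in replicate 1 and 46 bp in replicate 2. At dyf-11 the replicate 2 summit was 25 bp away, and the nearest summit of replicate 1 was 4684 bp away. In both replicates a summit lay within 100 bp of the X-box at 2 of the 20 genes, osm-6 and daf-19, beside 14 of the 237 promoters (5.91%).

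The X-boxes of 5 genes with a pooled summit within 100 bp are given first, then those of dyf-3 and bbs-8, whose nearest IDR summits lay 112 bp and 332 bp from the X-box. Capitals mark the X-box. They are read on the strand of the gene, and the consensus itself fixes GT at the left end and AAC at the right.
osm-5: GTTACTATGGCAAC
osm-6: GTTACCATAGTAAC
dyf-11: GTCTCCATGACAAC
ifta-2: GTTGCTATGGCAAC
bbs-2: GTATCCATGGCAAC
dyf-3: GTTTCTATGGGAAC
bbs-8: GTACCCATGGCAAC

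The X-box of daf-19 began 84 bp upstream of its start, and its middle lay 93 bp from the IDR summit. In replicate 1 the nearest summit was 29 bp from the X-box and in replicate 2 it was 98 bp from it. The stretch from the summit to the X-box is shown because it is the one case where an IDR summit of a ciliary gene and an X-box lay within 100 bp. It covers 130 bp (chrII:10169402-10169531, minus strand, the strand of daf-19) with the X-box in capitals, and the same 14 bases were found upstream of ift-74.
daf-19: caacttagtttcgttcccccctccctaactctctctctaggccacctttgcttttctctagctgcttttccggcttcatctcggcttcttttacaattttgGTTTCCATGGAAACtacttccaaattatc

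The tub-1 window is shown because it was the 1 ciliary summit window of 8 that held a match to the second X-box consensus, beside 0.7% of all IDR summit windows. It spans 50 bases to either side of the summit (chrII:8157047-8157147, minus strand, the strand of tub-1). Capitals mark the match, whose last base lay 10 bases from the summit. The first consensus was found in none of the 8 windows.
tub-1: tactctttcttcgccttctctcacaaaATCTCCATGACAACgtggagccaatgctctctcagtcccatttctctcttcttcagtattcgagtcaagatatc

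**Figure D4:**
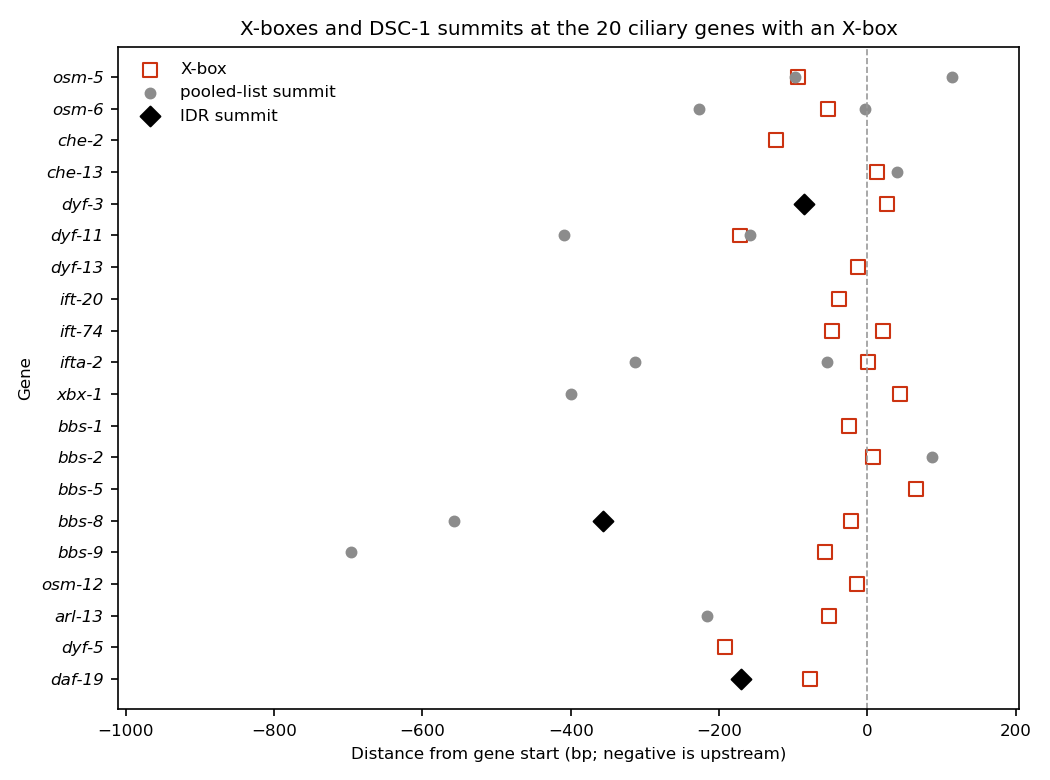
X-boxes and summits in the promoter windows of the 20 ciliary genes with an X-box. The horizontal axis is the distance from the gene start in bp, with negative values upstream. Red squares are X-boxes, grey circles are summits of the whole pooled list and black diamonds are IDR summits. The 3 diamonds are at dyf-3, bbs-8 and daf-19, and of the 2 grey circles of osm-5 the upstream one lies on its X-box.

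The 29 genes without an IDR promoter summit had their nearest IDR summit from 816 bp to 37793 bp from the start, with a median of 7950 bp. For 8 of them it was within 3000 bp. No such distances for all protein-coding genes are given here, so these values cannot be called near or far. Gene bodies of 8 of the 37 genes held 11 IDR summits in all, beside 7.49% of all protein-coding genes with at least 1. The ciliary genes were longer, with a median of 5028 bp beside 2027 bp, and the part of length in this count was not tested. By chromosome, the 8 ciliary genes on chromosome I had no IDR promoter summit, where 19.6% of all genes had one. On X there were 2 of 8 (15.9% of all genes), on II 2 of 5 (12.2%), on IV 2 of 6 (13.9%), on III 1 of 4 (20.2%) and on V 1 of 6 (10.7%).

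Other genes of the cilium that are not among the 37 were counted in the same way. Of 38 such symbols 34 were found in the annotation, and 8 of the 34 (23.5%) had an IDR promoter summit. The strongest were at tmem-107 (signal 580, rank 366), ift-43 (555, rank 413), klp-11 (500, rank 514) and hyls-1 (328, rank 1156). These summits were shared in turn with rps-26, mdt-26, F20C5.11 and hpo-9. Another of the 8 is tmem-138, whose peak is the tub-1 peak that the replicate 2 list lacks, so this peak enters both counts. The tmem-138 product belongs to the transition zone, so the 0 of 5 listed genes does not stand for all transition zone genes. Of 14 genes for sensory transduction in the cilium, 4 (28.6%) had one, the guanylyl cyclase genes odr-1 (signal 118) and daf-11 (97.3), the channel subunit gene tax-2 (104) and the G protein gene odr-3 (85.4), and none of these summits was shared. Both shares stood beside the same background of 14.7% as the 37 genes.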

How the data were processed

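Peak lists of 2 biological replicates on ce11 were used as the authors deposited them, with a signal value, a q-value as −log10 and a summit offset per peak. The sources used here do not give the aligner, the peak caller, their versions or the IDR threshold, and read depth is unknown. The deposited signal served only to rank peaks within a list. The deposited −log10 q-value was not used for ranking, since 5914 IDR peaks share its highest value. Gene starts came from Ensembl release 115 for WBcel235, with the sequence of the same assembly from RefSeq. Trans-spliced starts can lie downstream of the true start. Scripts used Python 3.11.15, pandas 2.3.3, NumPy 2.4.6, SciPy 1.17.1 and Matplotlib 3.10.9, and were tested on simulated data.

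Counts were set beside the share of all protein-coding genes, with no test. Named with full values were all genes with an IDR promoter summit, the protein-coding genes that share it, the others by their strongest weaker summits, and up to 4 genes of each further list. Genes, lists and rules were chosen with earlier results of these data known. Alternatives were 2 other windows, any transcript start, the nearest start alone, peak overlap, each replicate alone, the stronger 50% of IDR peaks, the whole pooled list and 2 X-box settings.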

Additional observations from a re-analysis of the deposited data

How the results depend on the processing

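Of 92 alternative counts, 65 stayed within 1.5 times the reported count and 27 moved further. With a window of 500 bp upstream to 100 bp downstream, 5 ciliary genes (13.5%) had an IDR promoter summit, beside 11.2% of all protein-coding genes. In that window IFT-A had 0 and the sensory transduction genes 2. With 2000 bp upstream, IFT-B had 5. Counting a summit for the nearest start alone, 6 ciliary genes (16.2%) had one, beside 11.4% of all protein-coding genes. By that count IFT-A had 0 and the other cilium genes 5. With replicate 1 alone there were 8 ciliary genes (21.6%), beside 15% of all protein-coding genes. With replicate 2 alone there were 5 (13.5%), beside 14.3%. Between these 2 settings IFT-A had from 1 to 2, the BBSome from 0 to 1, the transition zone from 0 to 1 and the remaining 5 genes from 1 to 2. In the stronger 50% of IDR peaks there were 3 ciliary genes (ift-81, daf-19 and dyf-6). This is 8.11%, beside 8.6% of all protein-coding genes (1718). Under that setting there were 0 in IFT-A, 0 in the BBSome, 1 of the remaining 5 genes, 5 other cilium genes and 0 sensory transduction genes. In the whole pooled list there were 24 ciliary genes (64.9%), beside 33.3% of all protein-coding genes (6655). They were 10 in IFT-B, 4 in IFT-A, 2 motor genes, 3 in the BBSome, 2 in the transition zone and 3 of the remaining 5 genes. That list also had 19 other cilium genes and 9 sensory transduction genes. The other windows, the nearest start, the stronger peaks and the whole pooled list hold fewer or more peaks or gene assignments by construction, and for the replicates alone the cause was not tested. No paired analysis was possible because there is 1 group. The number of reads is unknown, so a missing peak cannot be told from one too shallow to be called.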

Other observations

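IDR peaks, strong and weak, lay upstream of some ciliary genes but beyond the promoter window. The strongest of those given here was 1643 bp upstream of che-13, with signal 760 (rank 165) and ranks of 244 and 150 in the replicates, and the nearest protein-coding gene start was that of F59C6.18, 801 bp from the summit. An IDR peak 2411 bp upstream of osm-3 had signal 399 (rank 807) and lay 37 bp upstream of algn-14. One 2710 bp upstream of ifta-1 had signal 327 (rank 1164), with the start of C38C5.1 2593 bp away. At osm-1 the IDR peak 1433 bp upstream had signal 88.2 (rank 5689) and ranks of 5452 and 5801 in the replicates, and osm-1 was its nearest protein-coding gene start. With a window of 2000 bp upstream, osm-1, che-13 and arl-13 joined the 8 genes, 11 in all (29.7%), beside 19.5% of all protein-coding genes in that window.

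Coding exons of che-11, the gene of an IFT-A subunit, held 2 IDR summits, 2023 bp and 4195 bp from its start, with signals of 116 (rank 4425) and 106.9 (rank 4806). The first ranked 4791 in replicate 1 and 4463 in replicate 2, and the second 4458 and 9790, so that in replicate 2 it was outside the 6283 strongest peaks. An intron of che-12 held 1, 2220 bp from its start, with signal 127 (rank 4043) and ranks of 4897 and 3679 in the replicates, though no list had a promoter summit there. These genes were named after their values were seen.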
